A study of Mus musculus with 4 samples.

Results

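The H19 and Igf2 neighbourhood was followed through 10 genes of distal mouse chromosome 7, which were picked by their symbols from the 48795 genes of the deposited table. In order of position they were Ctsd, Syt8, Tnni2, Lsp1, Tnnt3, Mrpl23, H19, Igf2, Th and Ascl2, which span 593.4 kb (chr7:142375911-142969264, mm10). The set was drawn around the H19 and Igf2 control region, and it was chosen because Mrpl23 had been seen to fall. The genotype differences of these genes are therefore given as a description, with standard errors and without p-values. Whether a fit called a member is likewise only described.

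The tissue was the telencephalon, the part of the brain that forms cortex and basal ganglia, dissected at embryonic day 14 and sequenced in bulk. The Ctcf-null group had 2 libraries from C57BL/6 embryos with a loxP-flanked (floxed) Ctcf gene and the NestinCre transgene. The control group had 2 libraries from C57BL/6 embryos that carried the floxed Ctcf gene without the Cre label. Nestin sequences drive Cre mainly in neural progenitors, so meninges, blood vessels, blood and microglia in the same tissue are largely outside its reach. The series describes the libraries as 2 pairs, and libraries with the same number form a pair. No label says what a pair shares or that the libraries came from separate embryos. A p-value below thus covers only how much these 4 libraries spread, and part of that spread may be technical.

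The protein CTCF recognises a DNA motif through its zinc fingers and halts cohesin there, which fixes the ends of chromatin loops. Between H19 and Igf2 lies an imprinting control region that CTCF binds on the maternal chromosome, where it keeps enhancers downstream of H19 away from Igf2. On the paternal chromosome the region is methylated, CTCF is not bound, and Igf2 is expressed in place of H19. Mrpl23 is the next protein-coding gene beyond H19 on the side of those enhancers.

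The values are normalized read counts, which the authors scaled per library and did not divide by gene length. Whole reads could be recovered from them, with 25519331 to 43812558 reads per library. Ctcf itself was at 38.9 and 62.0 normalized counts in Ctcf-null libraries 1 and 2, against 437 and 1133 in controls 1 and 2. All 14 telencephalon markers of the marker list were detected. Of these 14, 8 were lower and 0 higher in Ctcf-null libraries, in a fit in which 13.7% of the 22158 tested genes were called. That fit was limma on log2(normalized count + 1) with the pair as a block and a threshold of 0.05 on the adjusted p, and all fold changes below are on that scale unless another is named. It called 813 genes (3.67%) higher and 2228 (10.1%) lower, so 26.7% of the calls were rises. With TMM and upper-quartile factors, other ways of bringing libraries to a common scale, the rises were 43.2% (TMM) and 45.0% (upper quartile) of the calls. The median log2 fold change of all tested genes was -0.07, and -0.01 with TMM factors. Without the block limma called 0 genes, with 170 at an unadjusted p under 0.05. In such bulk tissue, fewer cells of a type and less RNA per cell cannot be told apart.

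Mrpl23 encodes a protein of the large subunit of the mitochondrial ribosome, which translates the mitochondrially encoded subunits of the respiratory chain. The gene lies at chr7:142532686-142540747 on the plus strand, and GENCODE M21 also annotates a processed pseudogene, Mrpl23-ps1, at chr2:74591330-74591909 on the minus strand. A processed pseudogene is a copy of a spliced transcript pasted back into the genome. Local alignment of the 692-base coding transcript of Mrpl23 with the 580-base pseudogene gave 540 aligned bases, all 540 of them identical. The 441 coding bases of Mrpl23, with the stop codon, lay wholly inside that stretch. The first 120 coding bases of Mrpl23 and the matching bases of the pseudogene are shown as a part of that stretch. No base is in capitals because none differs:
Mrpl23: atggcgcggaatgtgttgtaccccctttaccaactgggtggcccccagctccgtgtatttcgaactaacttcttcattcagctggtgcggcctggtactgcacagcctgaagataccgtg
Mrpl23-ps1: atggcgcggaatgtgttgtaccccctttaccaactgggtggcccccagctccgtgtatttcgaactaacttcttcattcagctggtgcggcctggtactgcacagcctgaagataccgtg

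Mrpl23 was at 301 and 796 normalized counts in Ctcf-null libraries 1 and 2, against 1957 and 3697 in controls 1 and 2. Both Ctcf-null values lay below both control values. Ctcf-null library 1 stood at 15.4% of control 1 and Ctcf-null library 2 at 21.5% of control 2, on the scale with 1 added. These are falls of 6.49-fold in pair 1 and 4.64-fold in pair 2, and the fit gave a log2 fold change of -2.46 (SE 0.10, n = 2 libraries per genotype), or 5.49-fold lower. The fold changes of the pairs in the authors' deposited table were -2.70 and -2.21. In a fit that ignored the pairs the SE was 0.68. Ordered by fold change from the lowest, Mrpl23 ranked 20 of the 22158 tested genes.

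The pseudogene moved with the gene. Mrpl23-ps1, singled out after its values were seen, was at 88.4 and 166 normalized counts in Ctcf-null libraries 1 and 2, against 486 and 788 in controls 1 and 2. Its log2 fold change was -2.34 (SE 0.12), with -2.44 in pair 1 and -2.24 in pair 2. Of the reads on the gene and its copy together, the copy took 22.7% and 17.3% in Ctcf-null libraries, against 19.9% and 17.6% in controls, so its share overlapped between the genotypes. Of all 50-base words of the Mrpl23 transcript, 76.4% also occur in the pseudogene, and 92.5% of the pseudogene's words occur in that transcript. Reads from the shared stretch cannot be told apart by sequence, and the rule by which they were counted is not stated. When both values were added, an alternative chosen after the values were seen, the sum was 389 and 962 in Ctcf-null libraries and 2442 and 4485 in controls.

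The nearest tested protein-coding gene on each side of the pseudogene on chromosome 2 was looked up, a choice also made after the values were seen. Any untested genes in between were passed over. Lnpk1, 11.9 kb away, was at a log2 fold change of 0.00 (SE 0.09). Mtx2, 233.9 kb away on the other side, was at -0.18 (SE 0.09). Neither was called.

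**Figure D1:**
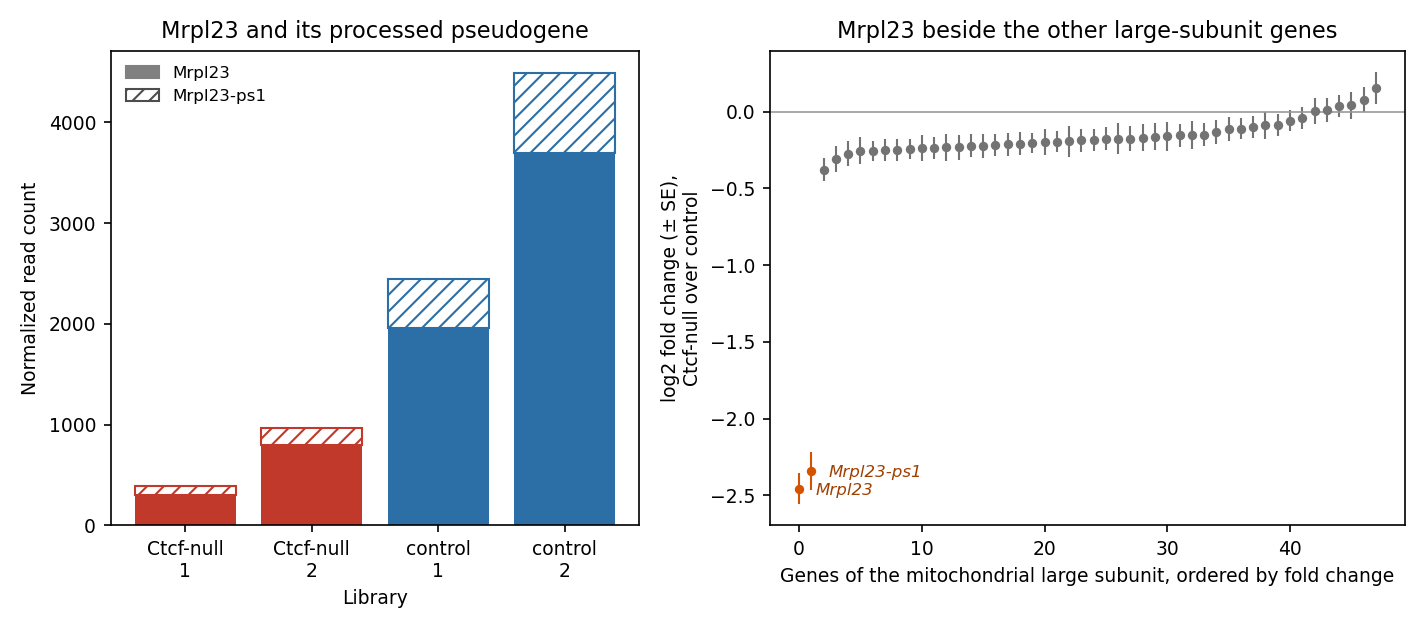
Left, normalized read counts of Mrpl23 (filled) and of its processed pseudogene Mrpl23-ps1 (hatched, stacked on top) in each library, Ctcf-null in red and control in blue. Right, log2 fold changes of Ctcf-null over control with SE for Mrpl23 and Mrpl23-ps1 (orange) and the 46 other tested genes of the mitochondrial large subunit (grey), which sit between -0.38 and 0.15 while Mrpl23 sits at -2.46.

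The RNAs of the other genes of the large mitochondrial subunit did not show a change of that size. Of 46 tested genes, 9 were called lower and 0 higher, 19.6% against the 13.7% of all tested genes, with a median log2 fold change of -0.18. With TMM factors 1 was called lower, and the median was -0.12 against -0.01 for all tested genes. Mrpl4 was the lowest, at 827 and 3136 normalized counts in Ctcf-null libraries and 1116 and 3925 in controls (log2 fold change -0.38, SE 0.08, limma adjusted p = 0.0019). Mrpl44 followed at -0.31, and the highest were Mrpl14 at 0.08 and Mrpl33 at 0.15.

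The Mrpl23 promoter is shown because the gene is the member that fell. RefSeq gives it on GRCm38.p6, the mm10 build, as chr7:142532782-142533081 on the plus strand, from 250 bases before to 50 bases after the start that RefSeq gives, which is 346 bases downstream of the gene start in GENCODE M21:
Mrpl23 promoter: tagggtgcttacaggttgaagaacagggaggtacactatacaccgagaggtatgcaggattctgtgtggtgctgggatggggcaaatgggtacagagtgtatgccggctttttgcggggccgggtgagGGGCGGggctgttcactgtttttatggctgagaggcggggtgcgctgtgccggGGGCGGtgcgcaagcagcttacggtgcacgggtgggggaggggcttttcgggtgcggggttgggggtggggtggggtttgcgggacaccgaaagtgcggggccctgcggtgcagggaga
The letters in capitals are GC boxes (GGGCGG, searched on both strands), of which it holds 2, while 35.7% of all 32851 promoter windows hold at least 1. The window has 63.3% G and C and 18 CG dinucleotides, against medians of 52.7% and 7 over all promoters. The core of the CTCF motif was searched too. The Mrpl23 window holds 0, while 8.61% of all 32851 promoter windows hold it. It was also absent from the other member windows, which were available for only 6 of the 10 members, Mrpl23 included. Binding of CTCF was not tested.

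H19 is a non-coding RNA made from the maternal chromosome, and it also carries the precursor of a microRNA. H19 was at 327 and 703 normalized counts in Ctcf-null libraries 1 and 2, against 351 and 954 in controls 1 and 2. Each Ctcf-null library was below its own control, but the groups overlapped, and libraries of pair 2 were high in both genotypes. The log2 fold changes were -0.10 in pair 1 and -0.44 in pair 2, and the fit gave -0.27 (SE 0.11). Without the block the SE was 0.73, and with TMM factors the log2 fold change was -0.21. H19 was not called, either by limma or by edgeR's quasi-likelihood test with the block, where it stood at -0.23.

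Igf2 encodes insulin-like growth factor 2, a secreted growth factor of the embryo expressed mainly from the paternal chromosome. Igf2 was at 388 and 1375 normalized counts in Ctcf-null libraries, against 393 and 1476 in controls. The difference between pairs was far wider than that between genotypes, and the groups overlapped almost wholly. The log2 fold change was -0.06 (SE 0.09), it was not called, and with upper-quartile factors it was 0.005, of the other sign. Without the block the SE was 0.99.

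Length-scaled values set H19 against Igf2 within each library. Per kb of exon, the normalized count of H19 was 1.93 and 1.17 times that of Igf2 in Ctcf-null libraries 1 and 2, against 2.05 and 1.49 times in controls 1 and 2. By this measure H19 was above Igf2 in all 4 libraries, and the ratio was lower in the Ctcf-null library of each pair. In pair 1 the ratios were close, at 1.93 and 2.05, on 395 to 549 reads per gene. The ratios of the genotypes overlapped, and the ratio was not tested. The reads do not show the parental chromosome, so the expression of each allele was not analysed here. In GENCODE M21, 68.0% of the 50-base words of Igf2 also occur in other annotated genes, mainly in the overlapping Gm49394, and 3.5% of those of H19. Igf2os, the antisense transcript of Igf2, overlaps it too, and without strand their reads cannot be told apart. How reads of such shared stretches were counted is not stated, so the place of H19 above Igf2 may depend on that rule.

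Meninges, choroid plexus and vessels are common sources of H19 and Igf2 RNA in embryonic brain. Of 12 meningeal and mesenchymal markers, 1 was called higher and 0 lower, and none was at 0. Their summed normalized counts were 3904.6 and 8008.5 in Ctcf-null libraries 1 and 2, against 3824.6 and 7283.3 in controls, so this list too was higher in pair 2. Of 8 choroid plexus markers 2 were higher and 0 lower, with sums of 96198.3 and 36326.3 in Ctcf-null libraries against 73516.8 and 25215.8 in controls. The median of the 8 gene means was only 207.9, so these sums are set by the most abundant markers and do not describe the whole list. Of 9 endothelial markers 0 were higher and 2 lower, with sums of 2599.3 and 5719.7 in Ctcf-null libraries against 3157.5 and 6472.8 in controls. The part of these cells in the values of H19 and Igf2 was not tested.

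**Figure D2:**
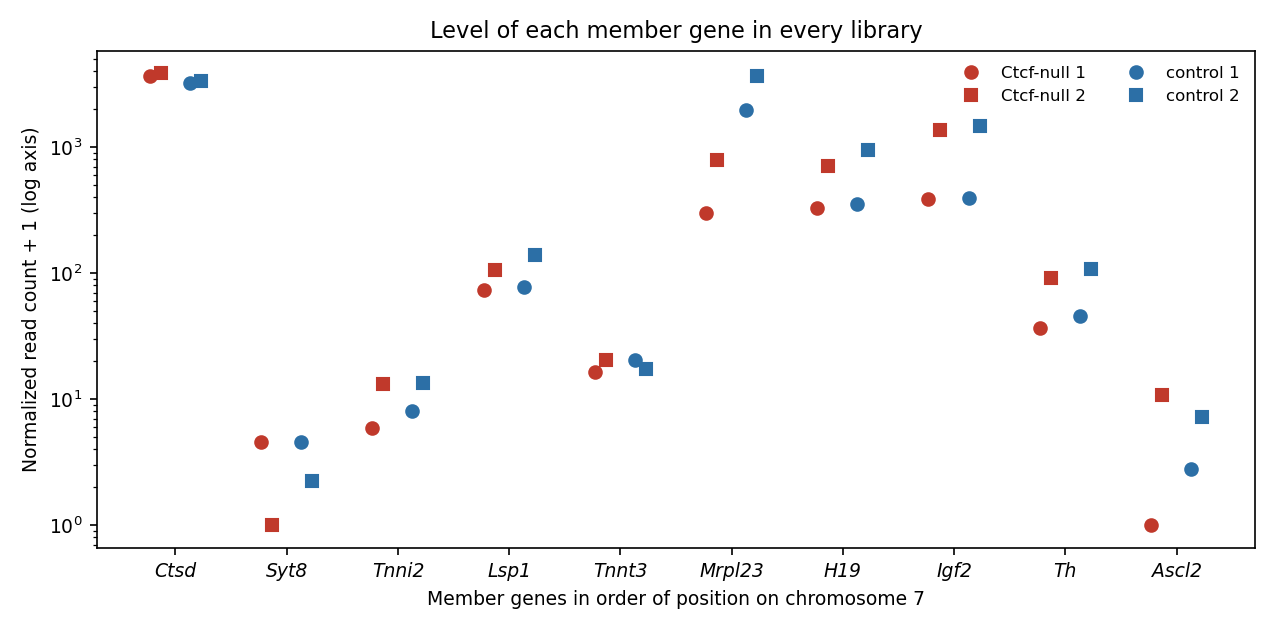
Normalized read count plus 1 (log axis) of each member in every library, with genes in order of position along chromosome 7, Ctcf-null libraries in red, controls in blue, circles for pair 1 and squares for pair 2. The Ctcf-null values of Mrpl23 (301 and 796) lie below its control values (1957 and 3697), while for H19 and Igf2 the 2 genotypes lie side by side within each pair.

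Around the Igf2 ligand, the other genes of the IGF pathway went both ways. Of 21 tested genes of the list, Igf2 among them, 3 were higher and 3 lower (28.6% called), with a median log2 fold change of 0.06, against -0.07 for all tested genes. Igf1, the sister ligand, was at 387 and 309 normalized counts in Ctcf-null libraries and 245 and 233 in controls (log2 fold change 0.53, SE 0.12, limma adjusted p = 0.0065). Igf1 and the receptors were named after their values were seen. The receptor genes Igf1r at 0.07, Igf2r at 0.09 and Insr at 0.06 were not called. Igfbp4, a binding protein that holds IGFs away from their receptor, was lowest at -0.72 (SE 0.10), followed by Igf2bp1, which binds Igf2 mRNA, at -0.51 (SE 0.08). Highest were Stc2, an inhibitor of the IGF-releasing protease PAPP-A, at 0.82 (SE 0.26) and the binding protein Igfbp3 at 0.54 (SE 0.14).

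On the Ctsd side of Mrpl23 lie a lysosomal gene, a leukocyte gene, a vesicle gene and a pair of muscle genes. Ctsd encodes cathepsin D, the main aspartic protease of lysosomes, and lies 46.8 kb from the next member, Syt8. It was at 3669.9 and 3856 normalized counts in Ctcf-null libraries, against 3251 and 3335 in controls. Both Ctcf-null values lay above both control values, with log2 fold changes of 0.17 and 0.21 in the pairs and 0.19 in the fit (SE 0.07). It was not called by limma with the authors' scaling, but edgeR with TMM factors, at 0.25, called it higher, where 4.8% of all tested genes were called higher and 7.13% lower. By annotation, 35.7% of the 50-base words of Ctsd also occur in the overlapping Gm49369.

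Other lysosomal genes went both ways. Of 24 tested genes of the list, 3 were higher and 1 lower (16.7% called), with a median of 0.04, whereas TMM factors gave 7 higher and 1 lower with a median of 0.10. The progranulin gene Grn was among the highest at 0.50 (SE 0.07). Gaa, the acid glucosidase of glycogen breakdown, was lowest at -0.81 (SE 0.10), and the lysosomal membrane gene Lamp1 was at -0.16 (SE 0.10) and not called.

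Lsp1, an actin-binding protein of leukocytes and endothelium, was at 72.8 and 104 normalized counts in Ctcf-null libraries, against 76.5 and 138 in controls. The groups overlapped, and the log2 fold change was -0.23 (SE 0.19), not called. Of 12 microglia and leukocyte markers 1 was higher and 0 lower, with sums of 3518.5 and 8339.0 in Ctcf-null libraries against 3109.5 and 7558.5 in controls. The part of leukocytes in the values of Lsp1 and Ctsd was not tested.

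Tnnt3 and Tnni2 encode troponin T and troponin I of fast skeletal muscle, the proteins that make contraction depend on calcium. Tnnt3 was at 15.6 and 19.4 normalized counts in Ctcf-null libraries, against 19.6 and 16.3 in controls. Its pairs went opposite ways, at -0.31 and 0.24, and the fit gave -0.03 (SE 0.37). Tnni2 was at 4.95 and 12.2 normalized counts in Ctcf-null libraries, against 7.12 and 12.5 in controls, or 7 and 10 reads against 8 and 10. Its log2 fold change was -0.24 with an SE of 0.49, which is wide because the reads are few. Of 17 tested genes of a skeletal muscle list, with genes of fast and slow fibres, 0 were higher and 1 lower (5.88% called). That gene was Acta1, skeletal muscle actin, at -0.89 (SE 0.15). Tnnc1 was at -0.41, Atp2a1 at 1.07 and Myh1 at 1.27, none of them called by limma, while edgeR called 3 genes of the list higher, Atp2a1 and Myh1 among them. The 8 skeletal muscle markers summed to 389.6 and 255.1 in Ctcf-null libraries and 558.6 and 345.2 in controls. Of these sums Acta1 alone held 214 and 74.1 in Ctcf-null libraries and 389 and 140 in controls, so they lean on that gene. Tnnc2, fast troponin C, was at 0 in all libraries.

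Syt8, a synaptotagmin, was near the floor of detection and was not tested. It had 5 and 0 reads in Ctcf-null libraries 1 and 2, against 4 and 1 in controls 1 and 2, and no fold is given. Among 15 tested synaptotagmins 0 were higher and 1 lower (6.67% called). The 1 that fell, Syt4, was at -0.22 (SE 0.07) and was not called with TMM factors. Syt15 at -0.47 and Syt12 at -0.25 were lowest and Syt9 at 0.41 and Syt13 at 0.53 highest, and none of these 4 was called.

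On the far side of Igf2 lie Th and Ascl2. Th encodes tyrosine hydroxylase, the rate-limiting enzyme of dopamine and noradrenaline synthesis. In GENCODE M21 its start is 353.0 kb from that of H19, while RefSeq has its promoter window nearer to H19, at chr7:142899946-142900245. Th was at 36.1 and 89.9 normalized counts in Ctcf-null libraries, against 44.5 and 108 in controls. Each Ctcf-null library was below its own control, at -0.30 and -0.26 on the log2 scale, while the groups overlapped. The fit gave -0.28 (SE 0.22), not called. Of 8 tested genes of a catecholamine list 0 were called, with a median of -0.03 that was 0.03 with TMM factors. Beside synthesis and transport genes the list holds Drd2, a receptor gene, Nr4a2 and Aldh1a1. Drd2 was at -0.36, Ddc, the next enzyme after Th, at -0.25, Slc18a2 at 0.07 and Aldh1a1 at 0.94. Of 5 midbrain dopaminergic markers only 2 were tested, and the 5 summed to 760.8 and 543.0 in Ctcf-null libraries and 701.8 and 526.6 in controls. Nearly all of that sum was Slc18a2, at 729.7 and 531 in Ctcf-null libraries and 676 and 517 in controls, so it describes that gene and not a cell type.

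Ascl2, an imprinted transcription factor gene needed in the placenta, was not tested. It had 0 and 8 reads in Ctcf-null libraries, against 2 and 5 in controls. The groups overlapped, and no fold is given at these counts.

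Across the 10 members, 8 passed the filter on low values. By limma 1 of these 8, Mrpl23, was called, where 13.7% of all tested genes were called. By edgeR with the block 2 of the 8 were called, Mrpl23 and Ctsd, where 11.9% of all tested genes were called. Since the members were chosen with their fold changes known, nothing is read from these counts.

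Few other genes inside the span had enough reads to be tested. Of 14 further annotated genes between Ctsd and Ascl2, 9 had reads, 3 were tested and 0 were called. Nctc1, a non-coding transcript in the interval between Mrpl23 and H19, was at 21.2 and 7.29 normalized counts in Ctcf-null libraries, against 27.6 and 7.50 in controls (log2 fold change -0.20, SE 0.41). The non-coding RP23-209O22.1, which starts 13.6 kb from the H19 start on the side of Igf2, was at 14.9 and 12.2 in Ctcf-null libraries, against 28.5 and 17.5 in controls (-0.69, SE 0.37). Gm7290, a pseudogene between Igf2 and Th, was at -0.20 (SE 0.15).

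In a window reaching 1 Mb beyond the outermost members, 50 other genes were tested, of which 2 were higher and 10 lower (24% called, against 13.7% of all tested genes), with a median of -0.17 against -0.07 for all. By edgeR with the block 2 were higher and 6 lower (16% called, against 11.9% of all tested genes). Their log2 fold changes ran from -0.98 for Cracr2b to 0.93 for Muc5ac, so none came near the -2.46 of Mrpl23. The genes called by limma with the largest changes were Cd151 at -0.97, R74862 at -0.57, Slc25a22 at -0.50, Taldo1 at -0.41, Osbpl5 at 0.40, Pnpla2 at -0.38, Polr2l at -0.31, Kcnq1ot1 at 0.29, Cd81 at -0.28 and Cars at -0.26, of which edgeR did not call Pnpla2 and Cars. The window takes in the imprinted domain of Kcnq1ot1, the paternally expressed RNA that silences genes around it. The 15 tested genes of that domain are all among the 50, so their calls are already counted above. Of these 15 genes, 2 were higher and 3 lower (33.3% called, against 13.7% of all tested genes), with a median of -0.17. With TMM factors 2 were higher and 1 lower. Kcnq1 at -0.41 and Tspan32 at -0.36 were lowest and Tnfrsf26 at 0.51 and Tnfrsf23 at 0.60 highest, and none of these was called. Of 18 imprinted growth genes elsewhere in the genome 3 were higher and 2 lower (27.8% called), and 3 higher and 1 lower with TMM factors, with Nnat at -0.41 and Rtl1 at -0.35 lowest and Dlk1 at 0.54 and Peg10 at 0.85 highest. Rtl1 and Dlk1 were not called.

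**Figure D3:**
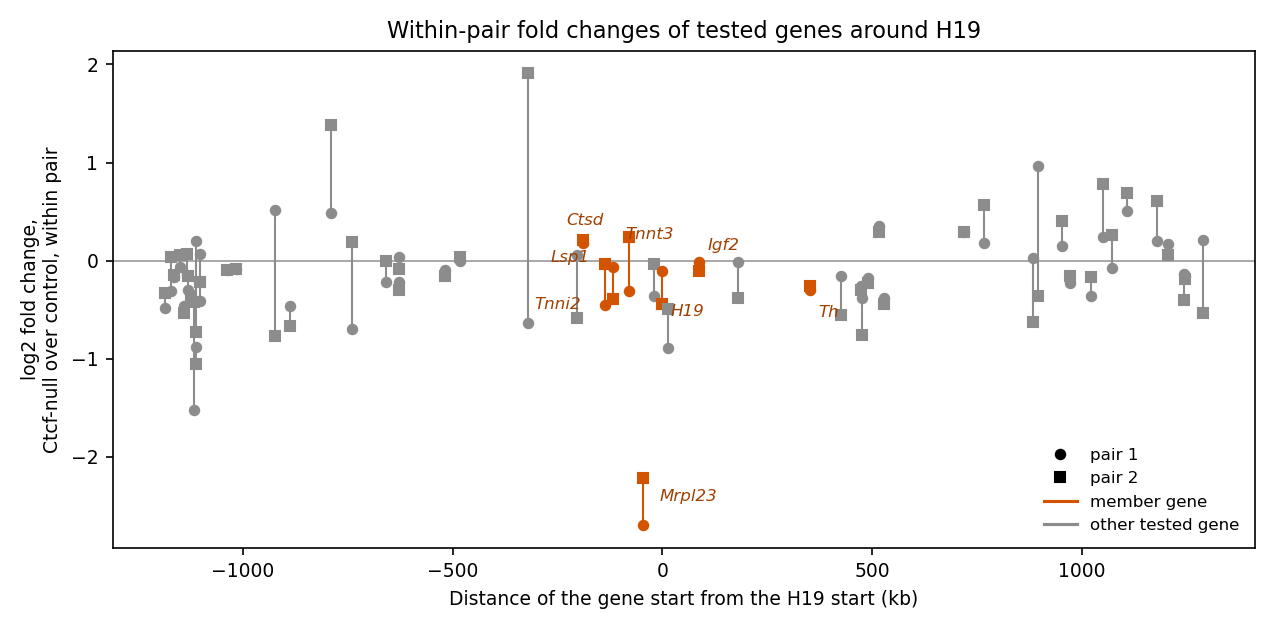
Within-pair log2 fold changes of Ctcf-null over control (circles pair 1, squares pair 2, joined by a line) for the 8 tested members (orange) and the 50 other tested genes (grey), against the distance of the gene start from the H19 start in kb. Mrpl23 sits at -2.70 and -2.21, and the H19, Igf2 and Th values of both pairs sit between -0.44 and -0.02. Gene starts are those of GENCODE M21.

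Levels between genes were compared per kb of exon in the GENCODE basic annotation, as the range over the libraries of a group. In Ctcf-null libraries Ctsd was highest, at 1725 to 1813 normalized counts per kb, followed by Mrpl23 at 311 to 824, H19 at 143 to 308 and Igf2 at 74.0 to 262. In controls Mrpl23 came first, at 2026 to 3827 per kb, and Ctsd second at 1528 to 1568, followed by H19 at 154 to 417 and Igf2 at 74.9 to 281. In both genotypes the ranges of H19 and Igf2 overlapped. The place of Mrpl23 below Ctsd in Ctcf-null libraries and above it in controls held in each library. Lsp1, at 27.9 to 40.1 per kb in Ctcf-null libraries and 29.3 to 52.8 in controls, overlapped with Th at 15.3 to 38.0 in Ctcf-null libraries and 18.8 to 45.5 in controls. Tnnt3 and Tnni2 stayed between 5.68 and 16.8 per kb, and Ascl2 and Syt8 between 0 and 5.99.

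The pairs differed more than the genotypes did for most members, and this was not particular to them. Of all 22158 tested genes, 16271 were called between the pairs and 3041 between the genotypes. The median absolute log2 pair difference of all tested genes was 0.84. The choice of members did not use the pair difference. Between pair 2 and pair 1, 5 of the 8 tested members were called, all higher in pair 2 in 2 of 2 genotypes, where 73.4% of all tested genes were called, 41.2% higher and 32.2% lower. Igf2 was 3.64-fold higher in pair 2 (log2 difference 1.86, SE 0.09, limma adjusted p = 2.7e-13). H19 was 2.41-fold higher (1.27, SE 0.11, limma adjusted p = 1.5e-09), Th 2.42-fold higher (1.28, SE 0.22, limma adjusted p = 2.9e-05) and Mrpl23 2.23-fold higher (1.16, SE 0.10, limma adjusted p = 2.0e-09). All 46 other tested genes of the large mitochondrial subunit were also called higher in pair 2, so Mrpl23 shares this rise with them. Lsp1 was 1.60-fold higher (0.68, SE 0.19, limma adjusted p = 0.0031), a call that was lost with upper-quartile factors, at 0.13, and with DESeq2, at 0.57. Tnni2, at 0.94 (SE 0.49), did not pass (limma adjusted p = 0.089), and Ctsd at 0.05 and Tnnt3 at 0.03 were of the other sign with upper-quartile factors, at -0.50 each. The median pair difference of all tested genes was 0.08, and -0.46 with upper-quartile factors, so both genes lay below it under either scaling, while the 5 called members lay above it. Marker lists of other cell types moved between the pairs too. Of 12 meningeal and mesenchymal markers 9 were called higher and 1 lower in pair 2, of 9 endothelial markers 5 higher and 3 lower, and of 8 choroid plexus markers 1 higher and 4 lower. Of 12 microglia and leukocyte markers 8 were higher and 2 lower, and of 14 telencephalon markers 11 higher and 3 lower. The part of these cells in the pair differences of the members was not tested. Of all calls of the pair difference 56.1% were higher in pair 2, but 33.5% with upper-quartile factors.

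**Figure D4:**
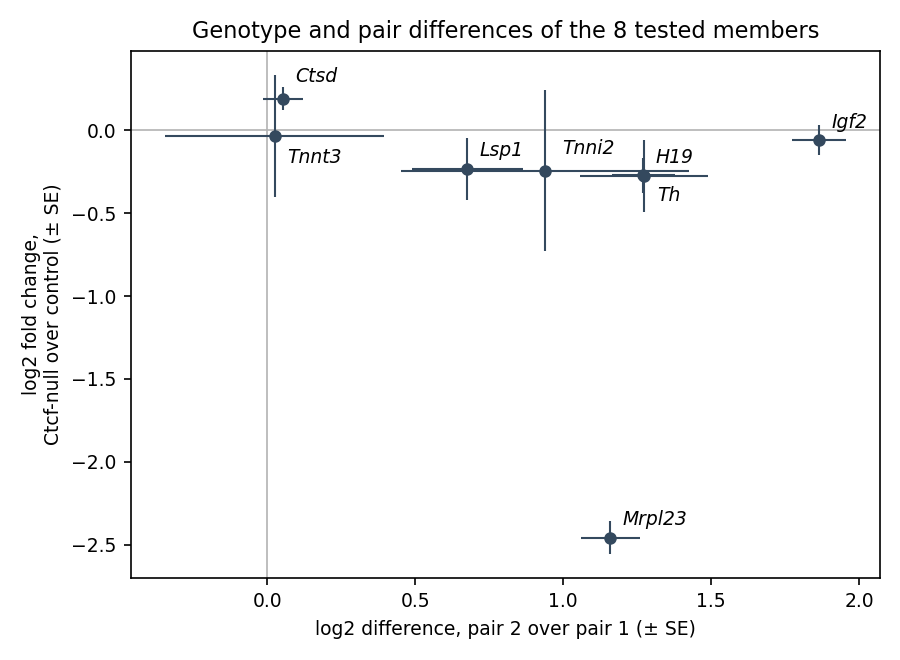
Log2 fold change of Ctcf-null over control (vertical axis, with SE) against the log2 difference of pair 2 over pair 1 (horizontal axis, with SE) for the 8 tested members. Igf2 lies farthest along the pair axis at 1.86 with a genotype difference of -0.06, while Mrpl23 lies at 1.16 and -2.46.

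Genes with the most similar profile were found by the Euclidean distance between log2 profiles over the 4 libraries, each centred on its own mean. For Mrpl23 the closest of 22157 genes were Mdp1 at a distance of 0.38, Tmem44 at 0.39 and Mrpl23-ps1 at 0.40. Mdp1 was at 253 and 465 normalized counts in Ctcf-null libraries, against 1436 and 2530 in controls. Tmem44 was at 269 and 544 in Ctcf-null libraries, against 1209.6 and 2783 in controls. For H19 the closest were Smpdl3a at 0.04, Six3 at 0.05 and Usp30 at 0.05, while Igf2 ranked 3653. The distances rest on 4 libraries and describe only these.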

How the data were processed

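An outside laboratory made cDNA with a Clontech SMART kit from tissue stored in RNAlater, per the labels' protocols. The authors deposited 1 table of normalized read counts (a signal, read counts scaled per library) and log2 fold changes per pair, per the file headers. The submitters' processing notes name STAR 2.5.3, DESeq2 and mm10, with the annotation release and gene counter not given in the sources used here. Nothing states that counting used strand, so reads of overlapping and antisense genes cannot be told apart.

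Whole reads were recovered by dividing each column by the value of 1 read. At least 99.997% of the nonzero values per library were whole, within the rounding of the deposited 2 decimals. Between 31760 and 38327 genes per library had reads. Positions and exon lengths came from GENCODE M21 (mm10), which matched 99.09% of the identifiers. Shares of 50-base words were counted on its transcripts.

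The test was limma 3.58.1 (R 4.3.3) on log2(normalized count + 1), fitted with a trend of spread on level and with genotype and pair as terms, on the 22158 genes that filterByExpr of edgeR 4.0.16 kept. P-values were two-sided and Benjamini-Hochberg adjusted over all tested genes, with a threshold of 0.05. The fit leaves 1 residual degree of freedom and borrows spread across genes (prior degrees of freedom 18.09). Adding 1 understates the change of low genes. Alternatives on the recovered reads were edgeR's quasi-likelihood test, DESeq2 1.42.0 and limma-voom, each with the block, beside other scalings, filters and pseudocounts. The limma and edgeR fits were also run on simulated counts, with the outcome not reported here.

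The pair was a block because the design text names pairs and the deposited fold changes are taken within them. Across genes, which are not independent replicates, the deviations of libraries with the same number from their genotype's mean correlated at 0.92. The members and gene lists were chosen with earlier results of these data known. All members are described. From each list the 2 lowest and the 2 highest tested genes were named, from the window the called genes up to 10, and for likeness the closest 3, except that a gene picked by this rule is not reported here. Of the other genes, Syt4, Igf1 and the IGF receptors were named after their values were seen. Erythroid markers (10 tested, 0 called) summed to 924999.6 and 627020.8 in Ctcf-null libraries against 1344558.8 and 576253.3 in controls, and pericyte markers (7 tested, 1 lower) to 2777.5 and 3801.4 in Ctcf-null libraries against 3132.6 and 4569.1 in controls.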

Additional observations from a re-analysis of the deposited data

How the results depend on the processing

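Without the replicate block 0 genes were called for genotype, and with 1 library left out and no block the count was 0 to 2, against 3041 with the block of pairs. DESeq2 with the block called 832, all of them among the 3041. The other settings kept the count of genotype calls, and all settings the count of pair calls, within 1.5 times. Without the block, the log2 fold change of Mrpl23 was -3.16 without Ctcf-null replicate 2, -2.92 without control replicate 1, -1.998 without control replicate 2 and -1.76 without Ctcf-null replicate 1, where the lone library is assumed to vary like the other genotype. It was -2.43 when summed with Mrpl23-ps1. In those unblocked fits H19 ran from -0.99 to 0.45 and Igf2 from -1.01 to 0.89. With the block kept, leaving out a library left 1 pair, at -2.70 or -2.21 for Mrpl23. The pair difference of Ctsd changed sign with upper-quartile factors (-0.50), edgeR (-0.079), DESeq2 (-0.060) and voom (-0.079), and that of Tnnt3 with TMM (-0.014), upper-quartile factors (-0.50), edgeR (-0.095), DESeq2 (-0.083) and voom (-0.079), and the cause was not tested. Among the lists, TMM factors gave 1 call in place of 9 for the large mitochondrial subunit and 7 rises in place of 3 for the lysosomal list. Syt8 and Ascl2, at most 8 reads in a library, allow no statement on genotype.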
